A study of Mus musculus with 8 samples.

Results

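Interferon-inducible GTPases are proteins that cells make after interferon exposure and that act inside the cell against vacuole-dwelling microbes. The 9 genes described here are 5 immunity-related GTPases (IRGs: Irgm1, Irgm2, Igtp, Iigp1 and Ifi47), 3 guanylate-binding proteins (GBPs: Gbp2, Gbp3 and Gbp7) and Irf1, a transcription factor that drives their promoters. They are 9 of 43430 genes in a table of RNA-seq read counts, matched by symbol, and were chosen by their levels in knockout against wild-type libraries of this same table. Their difference between genotypes is therefore given as a description, without a test. RNA came from lung endothelial cells, sorted by FACS as CD31+, of C57BL/6 mice at postnatal day 15, with 4 wild-type libraries (WT1 to WT4) and 4 knockout libraries (KO1 to KO4). In the knockout, QPC, a complex III subunit of the mitochondrial respiratory chain (gene symbol taken as Uqcrq), was deleted in the endothelium with tamoxifen given from day 0 to day 4 after birth. The labels give the same tamoxifen course for the wild-type mice. The sources used here name neither the promoter that drives the recombinase nor whether wild-type mice carried it. Whether the libraries are 1 animal each is not stated in the labels, so every p-value measures the spread between these samples only. In such bulk samples, fewer cells of a type and less RNA per cell cannot be told apart.

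Interferon-gamma binds its receptor, activates the kinases JAK1 and JAK2, and acts through gamma-activated sites (GAS) in promoters. Irf1 is among the first genes induced in this way, and IRF1 protein then binds interferon-stimulated response elements (ISREs) in promoters of IRG and GBP genes. Mouse IRGs fall into regulators of the IRGM type, which sit on the cell's own membranes and keep the others inactive there, and effectors such as Iigp1, which load onto the vacuole of a parasite and break it. GBPs oligomerise on the same vacuoles and on cytosolic bacteria. Endothelial cells are among the cells in which these genes respond to interferon.

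Promoter sequences are shown because the 9 genes are known to share interferon elements. A RefSeq promoter window on GRCm38.p6, from 250 bases before the annotated start to 50 bases after it, was matched for 8 of the 9 genes. The ISRE core was searched as GAAANNGAAA and the GAS as TTCNNNGAA, on both strands, where N is any base. In the sequences, written 5′ to 3′ on the strand of the gene, capitals mark every match to either motif, and a longer run of capitals holds overlapping matches. Igtp (chr11:58199491-58199550, plus strand) and Irgm2 (chr11:58214882-58214941, plus strand) come first because their printed 60 bases differ at 2 positions.
Igtp: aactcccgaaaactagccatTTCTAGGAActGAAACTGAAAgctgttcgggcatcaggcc
Irgm2: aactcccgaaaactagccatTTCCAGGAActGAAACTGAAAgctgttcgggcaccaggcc
Irgm1 (chr11:48871413-48871472, minus strand) and Gbp3 (chr3:142559977-142560036, plus strand) each held a pair of ISRE cores that overlap, and Gbp7 (chr3:142530220-142530302, plus strand) held a pair of GAS matches upstream of an ISRE core.
Irgm1: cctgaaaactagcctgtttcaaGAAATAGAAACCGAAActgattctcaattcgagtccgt
Gbp3: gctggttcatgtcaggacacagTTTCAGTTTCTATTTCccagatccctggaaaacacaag
Gbp7: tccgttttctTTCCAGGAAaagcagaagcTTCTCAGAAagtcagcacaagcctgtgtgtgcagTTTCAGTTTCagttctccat
Gbp2 (chr3:142620413-142620662, plus strand) and Irf1 (chr11:53769764-53770013, plus strand) are given as the 250 bases before the start, as the GBP that stood furthest apart between genotypes and as the regulator.
Gbp2: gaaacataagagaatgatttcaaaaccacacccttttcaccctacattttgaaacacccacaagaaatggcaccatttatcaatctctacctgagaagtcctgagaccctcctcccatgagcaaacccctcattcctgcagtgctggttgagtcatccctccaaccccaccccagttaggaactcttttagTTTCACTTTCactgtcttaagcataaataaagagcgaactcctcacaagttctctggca
Irf1: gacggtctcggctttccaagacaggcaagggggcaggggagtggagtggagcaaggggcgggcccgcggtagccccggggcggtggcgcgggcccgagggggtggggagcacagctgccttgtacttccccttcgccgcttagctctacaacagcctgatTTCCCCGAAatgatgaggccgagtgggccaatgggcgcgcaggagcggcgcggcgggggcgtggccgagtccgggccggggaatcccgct
Ifi47 (chr11:49076337-49076586, plus strand) is given over the same stretch as the gene without a match in its window.
Ifi47: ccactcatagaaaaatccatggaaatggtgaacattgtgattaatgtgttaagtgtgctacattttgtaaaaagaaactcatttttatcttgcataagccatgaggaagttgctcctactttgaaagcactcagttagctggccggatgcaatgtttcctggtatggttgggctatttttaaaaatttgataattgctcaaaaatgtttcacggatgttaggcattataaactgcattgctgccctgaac

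The ISRE core was found in 6 of the 8 genes with a window, against 3.44% of all 32851 windows and 3.71% of the 9765 tested genes that have one. The GAS was found in 4 of the 8, against 8.30% of all windows and 8.14% of tested genes. Counted back from the annotated start, the ISRE core of Gbp2 ran from base -59 to -50, that of Gbp7 from -53 to -44, that of Igtp from -34 to -25 and that of Irgm2 from -64 to -55. In Igtp, Irgm2 and Gbp7 a GAS lay upstream of the ISRE core, with first bases at -45, -75 and -106. Irf1 held a GAS from -90 to -82 and no ISRE core. Over the aligned 270 bases of their windows, Igtp and Irgm2 were identical at 244 (90.4%). Among other IRG genes with a window 4 of 7 held the ISRE core, among genes induced mainly by type I interferon 12 of 28, and among genes of autophagosome formation 0 of 9. These are matches of letters in a fixed window, and binding was not measured.

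**Figure D1:**
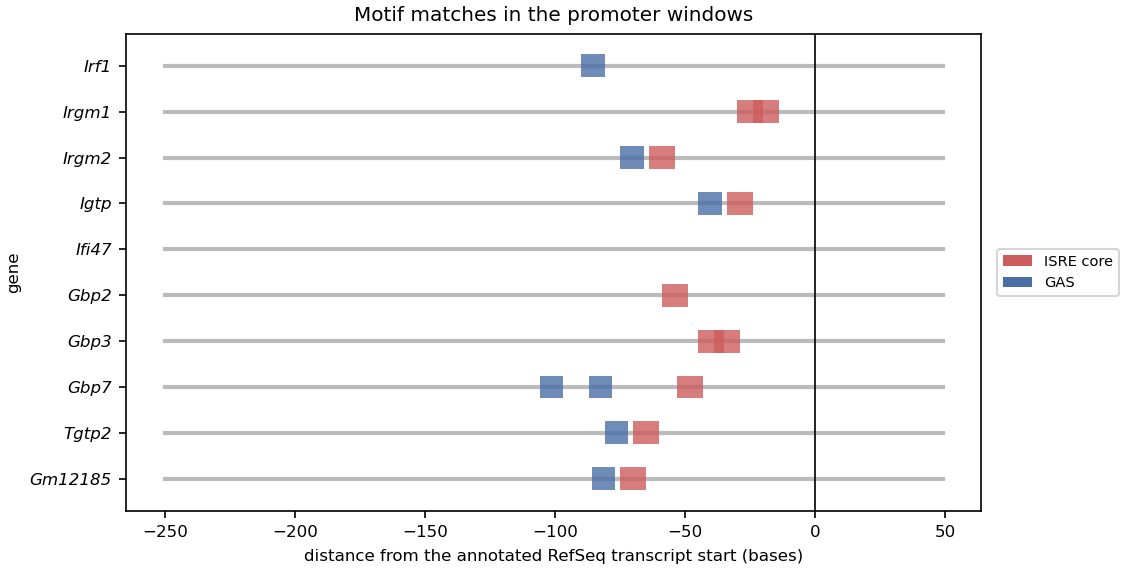
Matches to the ISRE core (red) and the GAS (blue) in the promoter windows of 8 of the 9 genes and of the IRGs Tgtp2 and Gm12185; the horizontal axis is the distance in bases from the annotated RefSeq start and each grey line is 1 window. The matches of Irgm2, Igtp, Tgtp2 and Gm12185 show a GAS followed by an ISRE core, and Ifi47 shows none. Other tested IRGs with a window are not drawn: 9930111J21Rik1 held an ISRE core only, and 9930111J21Rik2, Gm5431 and Irgq held neither motif.

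On the GRCm38 annotation all 9 genes are protein coding. On chromosome 11 the IRG loci lie close to one another in pairs: Irgm1 (chr11:48861968-48871683, minus strand) with Ifi47 (chr11:49076587-49096974, plus strand), and Igtp (chr11:58199556-58207591, plus strand) with Irgm2 (chr11:58199618-58222782, plus strand). Irf1 is on the same chromosome (chr11:53770014-53778374, plus strand). Gbp7 (chr3:142530342-142550149), Gbp3 (chr3:142560026-142573209) and Gbp2 (chr3:142620602-142638008) follow each other on the plus strand of chromosome 3, and Iigp1 (chr18:60376027-60392634, plus strand) is on chromosome 18. Igtp and Irgm2 share 162 exonic bases. Exonic bases that overlap other genes numbered 637 in Gbp7, 217 in Ifi47, 135 in Irf1 and 24 in Gbp2. With no counting rule for such bases stated, the counts of all these genes are uncertain to that extent. Of all 50-base words in its transcripts, Igtp shared 11.8% with other genes, mainly Irgm2, and Gbp7 shared 12.7%, mainly with a processed pseudogene that overlaps it. The other 7 genes shared between 0.379% (Irgm1) and 7.83% (Irgm2).

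The libraries held 6407924 (WT3) to 13981329 (KO4) counted reads. Levels are given as TMM-normalised CPM, the reads of a gene scaled to the size of its library. Across 12689 genes tested with edgeR's quasi-likelihood test and Benjamini-Hochberg adjustment at 0.05, 176 were lower and 285 higher in KO, and the median log2 fold change was 0.01. Uqcrq, the deleted gene, was at 27.3 ± 3.01 CPM in WT and 10.2 ± 6.26 CPM in KO (mean and SD of 4), below every WT library in all 4 KO libraries, with 1.59 CPM in KO1 and 9.57 to 15.6 in the others (log2 fold change -1.42, SE 0.53, edgeR adjusted p = 0.179). All 10 endothelial markers were detected in every library, with a summed level of 14722 to 17463 CPM in WT and 12832 to 16585 in KO. Of these, Cdh5, Tek and Erg were lower in every KO library than in every WT library, which held for 4.67% of all genes tested. Kdr, Tie1, Cldn5, Emcn and Esam did not have a lower mean in KO. Emcn was at 324 ± 50.6 CPM in WT and 414 ± 42.8 in KO. Pecam1, which encodes the CD31 used in the sort, stood at 2707 ± 315 and 2599 ± 511 CPM. The part of these marker levels in what follows was not tested.

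All 9 genes had a lower mean in KO than in WT, and all 9 passed the filter on low counts. Their log2 fold changes ran from -1.82 to -0.31 with a median of -0.86. The fit called 2 of them lower, Iigp1 and Gbp2, where 1.39% of all genes tested were called lower and 3.63% were called in either direction. In 3 of them (Igtp, Iigp1 and Gbp2) every KO library was below every WT library, which held for 4.67% of all genes tested. Since this contrast chose the genes, nothing is read from these counts.

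**Figure D2:**
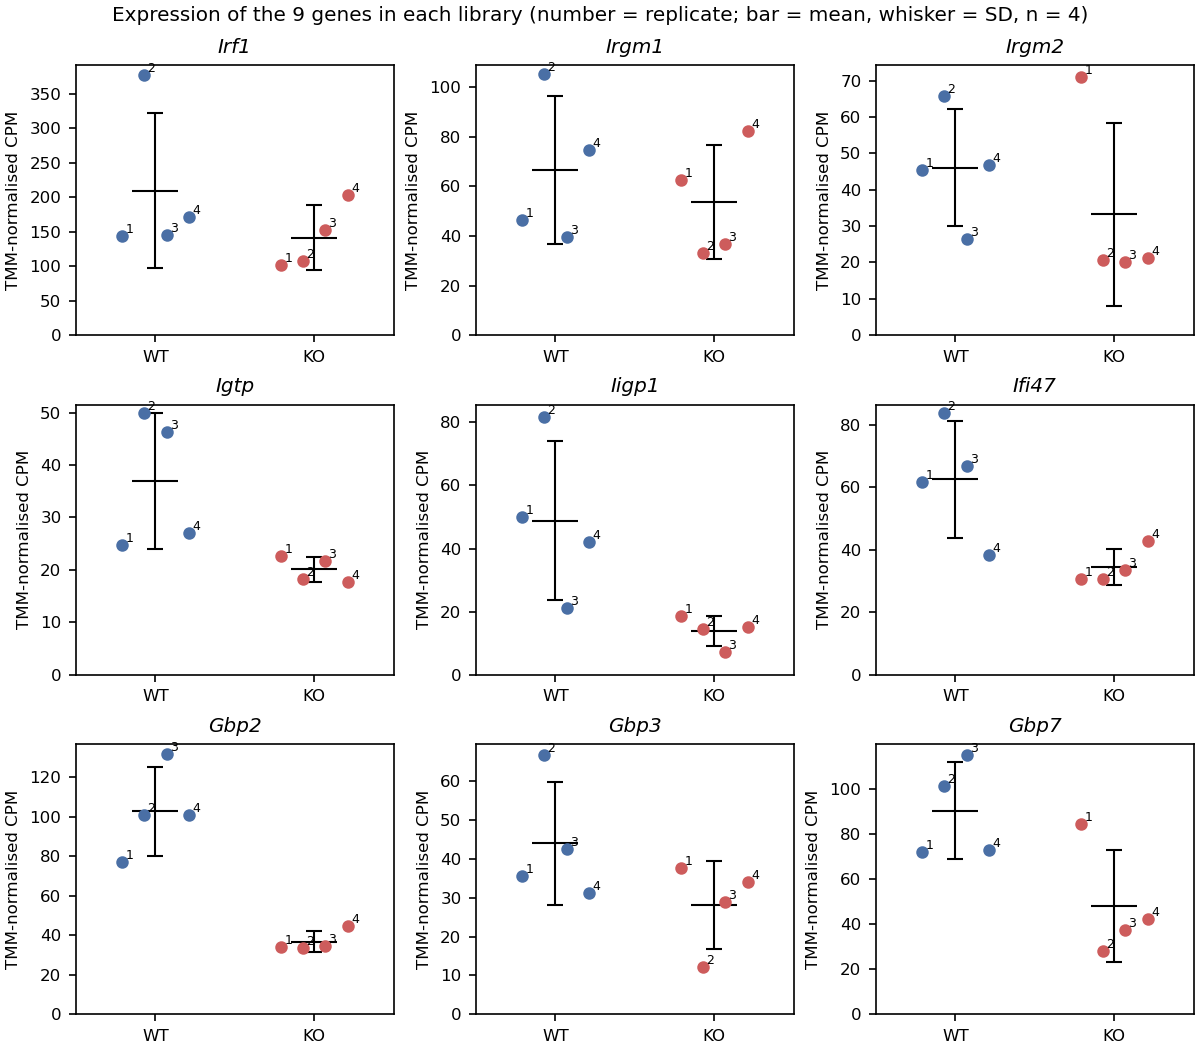
Level of each of the 9 genes in every library, in TMM-normalised CPM on a linear axis that starts at 0; points are libraries with their replicate number, the long bar is the mean and the whisker the SD of 4 libraries. The groups do not overlap for Igtp, Iigp1 and Gbp2, and KO1 stands above the other KO libraries for Irgm2 (71.1) and Gbp7 (84.5).

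Irf1, the regulator, had the largest spread among WT libraries, because of 1 library. It was counted at 143, 377, 146 and 171 CPM in WT1 to WT4 and at 101, 108, 152 and 203 CPM in KO1 to KO4. WT2 was far above the rest, and KO3 and KO4 lay above WT1 and WT3, so the groups overlapped. The means were 209 ± 112 in WT and 141 ± 47.3 in KO (SD, n = 4), a log2 fold change of -0.57 (SE 0.35). Without WT2 it was -0.12.

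The 3 regulatory IRGs differed among themselves. Irgm1, which occurs on the Golgi and on lysosomal membranes and keeps effector IRGs in check, had the smallest difference of the 9 genes. Its levels were 46.5, 105, 39.6 and 74.6 CPM in WT1 to WT4 and 62.5, 33.0, 36.9 and 82.1 CPM in KO1 to KO4. The groups interleaved, with KO4 above 3 of the 4 WT libraries. The log2 fold change was -0.31 (SE 0.34), and it ran from -0.60 without KO4 to 0.0022 without WT2.

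Irgm2, the Golgi-resident regulator, was low in 3 KO libraries and high in the other. It stood at 45.3, 65.6, 26.5 and 46.8 CPM in WT1 to WT4 and at 71.1, 20.7, 20.2 and 21.1 CPM in KO1 to KO4. KO1 held the highest level of all 8 libraries, while the other 3 KO libraries were below every WT library. With all libraries the log2 fold change was -0.47 (SE 0.42), without KO1 it was -1.15, and without WT2 it was -0.25.

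Igtp, also called Irgm3, is the regulator found at the endoplasmic reticulum, and its locus overlaps that of Irgm2. It was at 24.7, 49.9, 46.2 and 27.0 CPM in WT1 to WT4 and at 22.6, 18.3, 21.8 and 17.6 CPM in KO1 to KO4. Every KO library was below every WT library, with a gap of about 2 CPM between KO1 and WT1. The KO mean was 20.1 ± 2.47 CPM against 36.9 ± 12.9 in WT, 54.3% of it, with a log2 fold change of -0.88 (SE 0.32). In KO1, where Irgm2 was at its highest, Igtp was not raised to a like extent: it exceeded the KO mean by 0.18 on the log2 scale, against 1.33 for Irgm2.

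Iigp1, the effector also called Irga6 that coats the vacuole of Toxoplasma, showed the largest difference. It stood at 50.1, 81.9, 21.1 and 42.0 CPM in WT1 to WT4 and at 18.7, 14.4, 7.28 and 15.0 CPM in KO1 to KO4. All KO libraries were below all WT libraries, though KO1 came close to WT3. These levels rest on 141 to 949 reads per WT library and 92 to 207 per KO library. The KO mean, 13.9 ± 4.78 CPM, was 28.4% of the WT mean of 48.8 ± 25.2, a log2 fold change of -1.82 (SE 0.40) that was -1.44 without WT2 and -2.06 without WT3.

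Ifi47, also called Irgd, is another IRG of the effector type. Its levels were 61.5, 83.6, 66.8 and 38.2 CPM in WT1 to WT4 and 30.5, 30.5, 33.6 and 42.6 CPM in KO1 to KO4. KO4 was above WT4, and the other 3 KO libraries were below every WT library. The means were 62.5 ± 18.8 and 34.3 ± 5.75 CPM, a log2 fold change of -0.86 (SE 0.27).

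Among the GBPs, Gbp2, which is recruited to parasite vacuoles and to bacteria, had the clearest separation. It stood at 76.8, 101, 132 and 101 CPM in WT1 to WT4 and at 34.0, 33.4, 34.4 and 44.5 CPM in KO1 to KO4. The lowest WT library was well above the highest KO library, KO4. The KO mean was 36.6 ± 5.31 CPM and the WT mean 103 ± 22.4, so KO stood at 35.7% of WT, with a log2 fold change of -1.49 (SE 0.22). Over the 15 alternative settings that value lay between -1.61 and -1.34.

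Gbp7, which lies beside Gbp3 on chromosome 3, was at 72.0, 101, 115 and 73.1 CPM in WT1 to WT4 and at 84.5, 28.3, 37.5 and 42.1 CPM in KO1 to KO4. KO1 lay within the WT range, and the other 3 KO libraries were below all WT libraries. The means were 90.4 ± 21.4 and 48.1 ± 24.9 CPM, a log2 fold change of -0.91 (SE 0.30) that was -1.32 without KO1.

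Gbp3, a GBP that takes part in the defence against intracellular bacteria, was at 35.7, 66.9, 42.6 and 31.2 CPM in WT1 to WT4 and at 37.6, 12.1, 29.0 and 34.0 CPM in KO1 to KO4. KO2 stood apart at the low end and WT2 at the high end, and the groups overlapped between them. The log2 fold change was -0.65 (SE 0.35), and -0.37 without WT2.

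Summed over the 5 IRGs, the level was 261 ± 84.6 CPM in WT and 155 ± 43.9 in KO. The 3 GBPs together were at 237 ± 50.1 CPM in WT and 113 ± 34.6 in KO. In the KO libraries the GBP sum was 156 CPM in KO1, 73.8 in KO2, 101 in KO3 and 121 in KO4, all below the lowest WT sum of 185. For the IRGs the KO sums were 205, 117, 120 and 178 CPM, and KO1 lay above the lowest WT sum, 200.2 in WT3.

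Levels of different genes were compared as RPKM, that is CPM divided by exonic length in kilobases. In WT the order was Irf1 (52.6), Gbp2 (40.8), Ifi47 (25.3), Igtp (18.3), Gbp7 (16.1), Gbp3 (13.5), Irgm2 (12.5), Irgm1 (11.4) and Iigp1 (8.37 RPKM). Of these neighbours only Gbp2 and Ifi47 were further apart, by 15.5 RPKM, than the larger of their SDs. In KO, Irf1 (35.5 RPKM) and Gbp2 (14.5) still led and Iigp1 (2.38) was still last. The KO gaps wider than the larger SD were those between Irf1 and Gbp2, between Ifi47 (13.9) and Igtp (9.92), and between Gbp7 (8.57) and Iigp1. Gbp7 moved from the fifth place to the eighth and Irgm1 from the eighth to the fifth, between neighbours that did not differ beyond their SDs.

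The 9 genes varied together only in part within the genotypes. WT2 held the highest WT level of 7 of them, and among KO libraries KO1 held the highest level of 5 and KO4 of the other 4. Averaged over the 9 genes, WT2 was 0.56 above its group mean on the log2 scale, KO1 0.35 and KO4 0.20, and KO2 was lowest at -0.37. Of the 36 gene pairs, 31 had a positive Pearson r over the 8 libraries after centring each genotype, with a median of 0.32. The highest were Gbp3 with Gbp7 (0.73), Iigp1 with Irgm2 (0.72) and Irgm1 with Irf1 (0.71). Gbp2 ran the other way from Irgm2 (-0.39) and from Iigp1 (-0.38). These values come from 8 libraries that all genes share, and describe them only. Markers of other cells moved with this variation. The 7 alveolar type 2 markers summed to 21630, 3728, 9109 and 16291 CPM in WT1 to WT4 and to 3596, 10562, 15758 and 6606 CPM in KO1 to KO4. WT2 was thus the lowest WT library, and KO1 and KO4 the lowest KO libraries, and the same held for the sums of alveolar type 1 and of fibroblast and pericyte markers. The 6 lymphatic endothelial markers summed to 2414 CPM in WT2 and 2251 in KO1, and to 1143 to 1574 in the other libraries. The endothelial sum was also highest in WT2 (17463) and KO1 (16585). The part of these marker levels in the values of the 9 genes was not tested.

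**Figure D3:**
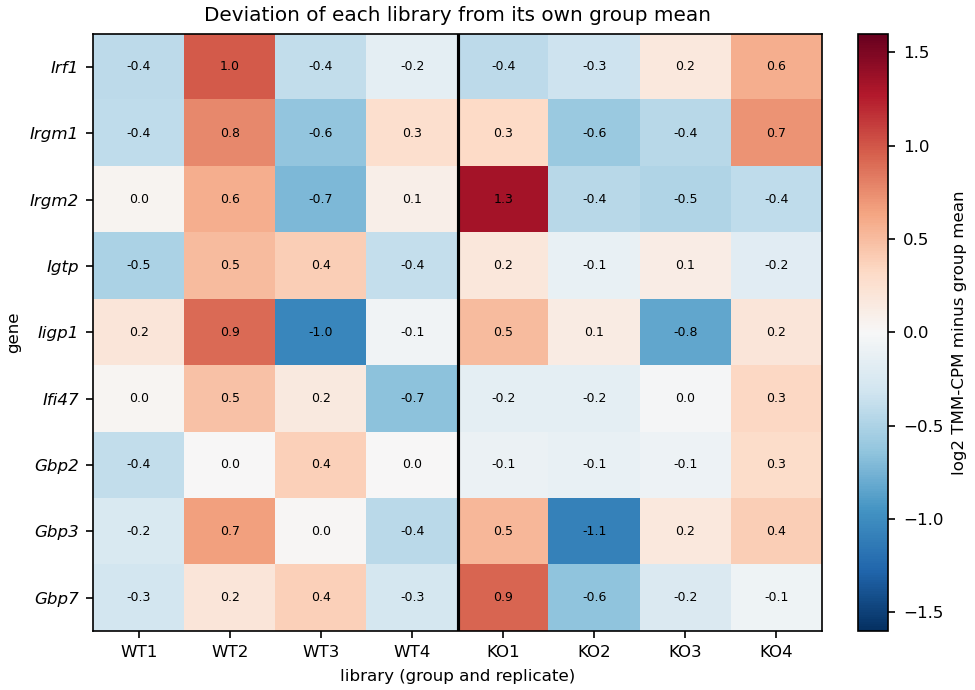
Deviation of each library from the mean of its own genotype for the 9 genes, in log2 CPM; columns are libraries, rows are genes and the colour scale gives the deviation. WT2 is above its group mean in every row and reaches 0.98 for Irf1, and KO1 reaches 1.33 for Irgm2.

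The other tested IRGs and GBPs also had negative log2 fold changes, and 1 of them passed the test. Of all genes tested, 49.0% had a negative value and 1.39% were called lower. Of 12 other IRGs listed 7 were tested, with a median log2 fold change of -1.01, a range from -1.66 to -0.23, and 0 past the threshold with edgeR, DESeq2 or limma voom and 0 at an unadjusted edgeR p below 0.05. Of 8 other GBPs listed 5 were in the table and 3 were tested, with a median of -0.96. Gbp5, Gbp6 and Gbp10 were not analysed here.

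Gbp9 was called lower in KO by edgeR. It was at 78.3, 128, 167 and 84.5 CPM in WT1 to WT4 and at 58.1, 43.3, 44.3 and 62.1 CPM in KO1 to KO4. Every KO library was below every WT library, and the means were 114 ± 41.3 and 51.9 ± 9.56 CPM. The log2 fold change was -1.14 (SE 0.25, edgeR adjusted p = 0.0162). The call was lost without WT2 (edgeR adjusted p = 0.0572), WT3 (0.0613), KO2 (0.0579) or KO3 (0.0635), and with a replicate block (0.0629). Over all 15 alternatives the adjusted p ran from 0.000523 to 0.0635. Gbp9 shared 8.05% of its 50-base words with other genes, mainly Gbp4 and Gbp8.

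Gbp4 did not pass the test, at 60.2 ± 17.9 CPM in WT and 30.9 ± 5.91 in KO (log2 fold change -0.96, SE 0.27, edgeR adjusted p = 0.0641), although its groups did not overlap. With other settings its adjusted p ran from 0.0220 to 0.204. Gbp2b was at 13.6 ± 8.62 and 9.63 ± 6.97 CPM.

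9930111J21Rik2, an IRG that shares 59.8% of its 50-base words with 3 other IRG genes and whose level is uncertain for that reason, was at 44.2, 85.8, 40.8 and 43.1 CPM in WT1 to WT4 and at 83.4, 29.3, 39.1 and 30.4 CPM in KO1 to KO4 (log2 fold change -0.23, SE 0.35, edgeR adjusted p = 0.877). WT2 and KO1 were both high, as they were for Irgm2. Irgq, a divergent member of the family, was at 52.1 ± 6.06 and 41.0 ± 7.85 CPM (edgeR adjusted p = 0.592). Tgtp2, an effector with a near-identical copy, was at 11.7 ± 6.99 and 8.72 ± 5.94 CPM, and 86.6% of its 50-base words are shared, so its level is uncertain too. The other 4 tested IRGs (Gm12185, Gm5431, Gm4951 and 9930111J21Rik1) had means of at most 5.30 CPM in either genotype. Of the Mx and GVIN GTPases only Gm4070 was tested, at under 1 CPM in both genotypes, and Mx1 and Mx2 were below the filter.

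**Figure D4:**
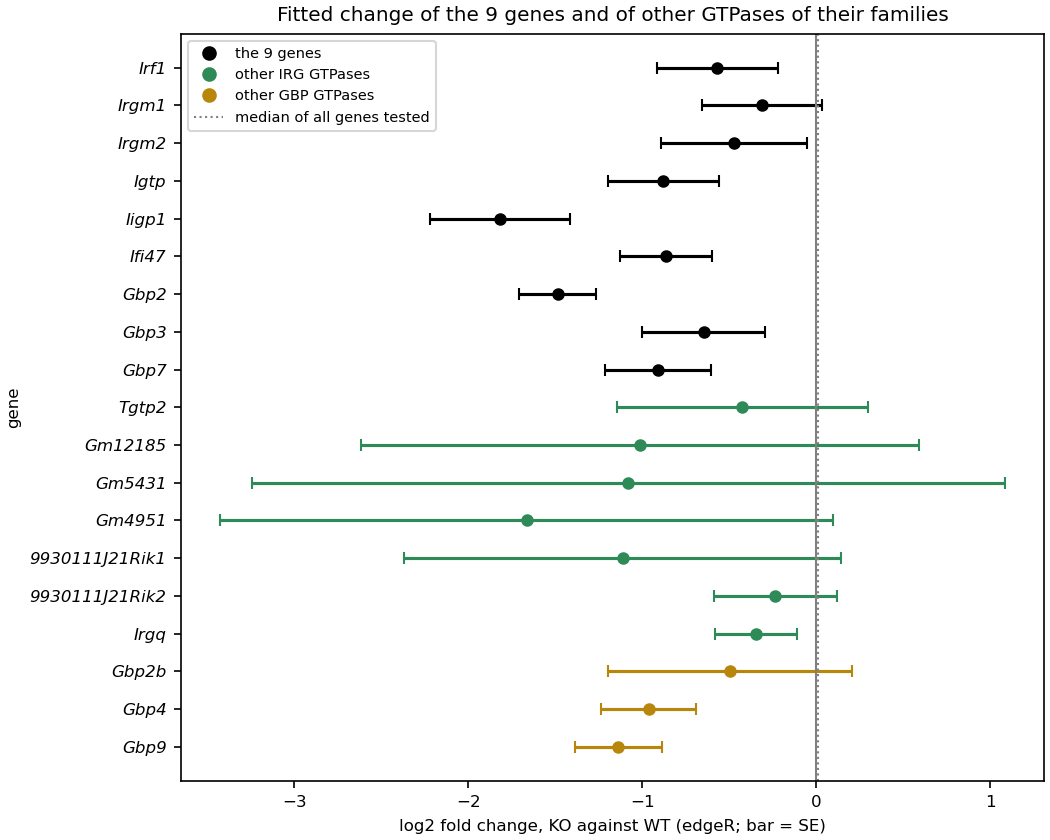
Fitted log2 fold change, KO against WT, of the 9 genes (black), 7 other IRGs (green) and 3 other GBPs (ochre); the bars are 1 SE and the dotted line is the median of all genes tested, 0.01. The 7 green and 3 ochre points lie below 0, and so do the 9 black ones, which this contrast chose. Of all genes tested, 49.0% had a value below 0. The widest bars belong to Gm4951, Gm5431 and Gm12185, which were counted at a few CPM.

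Genes upstream of the GTPases did not pass the test in either direction, where 3.63% of all genes tested were called. At that share a list this short can hold 0 calls by its size alone, and the same goes for the lists below. Of 11 tested receptors, kinases and STATs, 0 were called higher and 0 lower with edgeR, DESeq2 or limma voom (0 higher and 2 lower at an unadjusted edgeR p below 0.05), and their median log2 fold change was -0.11 beside 0.01 over all genes. Ifngr1, the ligand-binding chain of the interferon-gamma receptor, was at 247 ± 51.9 CPM in WT and 192 ± 59.6 in KO (log2 fold change -0.37, SE 0.21, edgeR adjusted p = 0.480). Jak1, the kinase bound to it, was at 291 ± 44.2 and 270 ± 22.7 CPM.

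In the list of 10 tested IRF family members and co-regulators, 0 passed in either direction with any of the 3 tools (0 higher and 1 lower at an unadjusted edgeR p below 0.05), and the median was -0.05. Irf2, an IRF that competes with IRF1 for ISREs, was at 88.6 ± 12.8 CPM in WT and 58.2 ± 11.7 in KO, with groups that did not overlap (log2 fold change -0.61, SE 0.21, edgeR adjusted p = 0.144). Irf2bp2, a corepressor that binds IRF2, was at 74.1 ± 16.5 and 85.9 ± 41.1 CPM.

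Of 10 inhibitors of interferon signalling, 0 passed in either direction with edgeR or limma voom (3 higher and 2 lower at an unadjusted edgeR p below 0.05), and the median was -0.10. With DESeq2, Ptpn11 was called higher, and Socs3 and Cish, the latter named after its values were seen, were called lower. Socs3, a feedback inhibitor of JAK kinases, was at 463, 611, 270.0 and 267 CPM in WT1 to WT4 and at 216, 137, 216 and 291 CPM in KO1 to KO4. WT1 and WT2 were high and KO4 was above WT3 and WT4 (log2 fold change -0.91, SE 0.30, edgeR adjusted p = 0.164). Ptpn11, which encodes the phosphatase SHP2, was at 118 ± 6.18 CPM in WT and 171 ± 14.2 in KO, without overlap (log2 fold change 0.54, SE 0.15, edgeR adjusted p = 0.0537).

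Transcripts of the ligands were at or near 0. Of 13 listed interferons and inducing cytokines, 11 had no read in any library, including Ifng and Ifnb1. A count of 0 allows up to 3 counts, which is 0.217 CPM in KO4 and 0.448 CPM in WT3, by counting error only. Il15 was the one tested, at 0 to 13.1 CPM in WT and 0 to 7.17 in KO (edgeR adjusted p = 0.731).

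Among other interferon targets 2 genes were called by edgeR, both higher in KO, where 2.25% of all genes tested were called higher. DESeq2 called the same 2 higher and 2 others lower. Of 17 tested genes of class I antigen presentation and the immunoproteasome, 0 passed in either direction with any of the 3 tools (0 higher and 1 lower at an unadjusted edgeR p below 0.05), and the median was -0.05. H2-D1 was at 929 ± 233 CPM in WT and 1238 ± 502 in KO (edgeR adjusted p = 0.586), and B2m, the light chain of class I, at 871 ± 218 and 1170 ± 544 (edgeR adjusted p = 0.639). All 7 class II genes had positive log2 fold changes with a median of 0.32, where 49.0% of all genes tested had a negative value. Of these 7, 0 passed with any of the 3 tools or at an unadjusted edgeR p below 0.05. Cd74, the class II invariant chain, was at 213 ± 152 and 232 ± 122 CPM, and H2-Aa at 59.7 ± 33.5 and 70.5 ± 18.1. Within the genotypes Cd74 was highest in WT1 (389 CPM) and KO3 (372), as was the sum of alveolar type 2 markers (21630 and 15758 CPM). Both Cd74 (61.9 CPM) and H2-Aa (13.0) were lowest of WT in WT2, as was that sum (3728). The part of such cells in the class II levels was not tested.

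Of 11 other tested targets of interferon-gamma, 1 rose and 0 fell with edgeR and with limma voom, and the median was 0.34. DESeq2 called 1 higher and 1 lower, the lower one being Parp14, named after its values were seen. Icam1, the leukocyte adhesion molecule of endothelial cells, was at 151, 169, 115 and 146 CPM in WT1 to WT4 and at 504, 279, 399 and 222 CPM in KO1 to KO4. Every KO library was above every WT library, which held for 6.94% of all genes tested. The log2 fold change was 1.27 (SE 0.22, edgeR adjusted p = 0.00461), and the call held in all 15 alternatives (adjusted p 1.3e-05 to 0.0236). Icam1 is also induced through NF-kB, and the part of NF-kB in its level was not tested. In the list of 11 NF-kB pathway genes, 0 passed in either direction with any of the 3 tools (3 higher and 1 lower at an unadjusted edgeR p below 0.05). Among all genes tested 3.63% were called with edgeR, and the median of the list was 0.03. Nfkbia, the inhibitor that NF-kB itself induces, was at 158 ± 26.9 and 243 ± 71.8 CPM (edgeR adjusted p = 0.107). Without the low-count filter it was called higher (edgeR adjusted p = 0.0339). Wars, a tRNA synthetase gene induced by interferon-gamma, was at 173 ± 15.2 and 153 ± 20.3 CPM.

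Of 31 tested genes induced mainly by type I interferon, 1 rose and 0 fell with edgeR and with limma voom, and the median was -0.04. Bst2, which tethers budding virus, was at 127 ± 30.1 CPM in WT and 214 ± 58.0 in KO (log2 fold change 0.76, SE 0.20, edgeR adjusted p = 0.0497), and 11 of the 15 alternatives lost this call, with adjusted p from 0.0062 to 0.146. Ly6e was at 1523 ± 57.7 and 1184 ± 218 CPM (edgeR adjusted p = 0.159, called lower by DESeq2 with an adjusted p of 0.0349), and Ifitm3 was at 263 ± 60.2 and 266 ± 55.9. Among 10 sensors of nucleic acid and their adaptors 0 passed in either direction with any of the 3 tools (1 higher and 0 lower at an unadjusted edgeR p below 0.05), with a median of 0.06. Ddx58, which encodes RIG-I, was at 66.8 ± 8.40 and 66.8 ± 22.6 CPM.

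ATG8 proteins of the autophagy machinery, like IRGM proteins, are needed to keep effector IRGs and GBPs off the cell's own membranes. Of 14 tested ATG8 conjugation genes and autophagy partners, 1 fell and 0 rose with edgeR, and the median was -0.21. DESeq2 and limma voom each called 2 lower, Map1lc3b and Map1lc3a. Map1lc3a, an ATG8 protein gene named after its values were seen, was at 130.0 ± 30.1 CPM in WT and 78.4 ± 17.8 in KO (log2 fold change -0.73, SE 0.21, edgeR adjusted p = 0.0727). Map1lc3b, which encodes another ATG8 protein, was at 256, 248, 231 and 241 CPM in WT1 to WT4 and at 158, 180, 179 and 161 CPM in KO1 to KO4. The groups were tight and did not overlap (log2 fold change -0.53, SE 0.13, edgeR adjusted p = 0.0371). The call was lost in 10 of the 15 alternatives, among them each single-library removal, with a log2 fold change of -0.58 to -0.49 and adjusted p of 0.000218 to 0.106 over all of them. Gabarap, also of the ATG8 family, was higher in every KO library than in every WT library, at 164 ± 26.8 and 214 ± 26.5 CPM (edgeR adjusted p = 0.242), and Sqstm1, the cargo receptor p62, was at 309 ± 37.1 and 375 ± 84.6.

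Over all these lists 139 tested genes other than the 9 gave 2 calls lower and 2 higher, against 1.39% lower and 2.25% higher among all genes tested, and their median log2 fold change was -0.05.

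**Figure D5:**
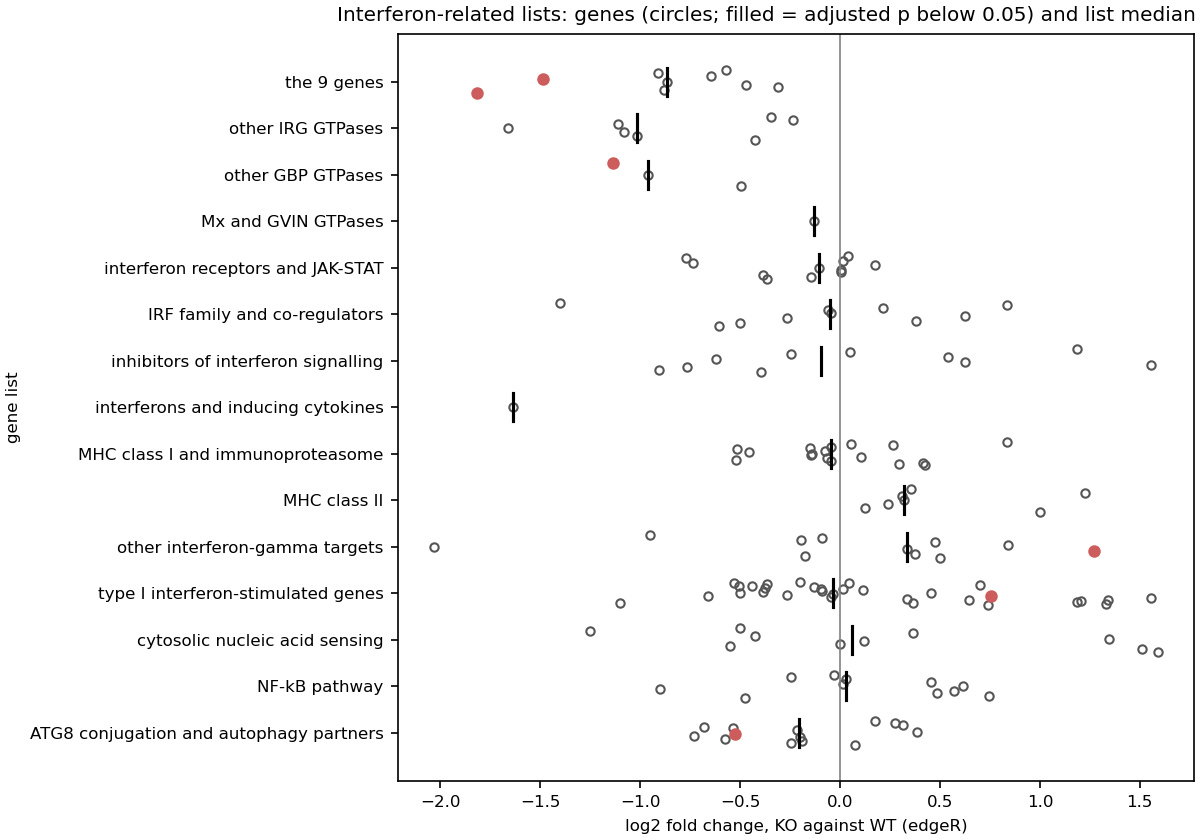
Fitted log2 fold changes, KO against WT, of the 9 genes and of the genes tested in each related list; circles are genes, filled ones have an edgeR adjusted p below 0.05, and the black bar is the median of the list. The medians of the lists of other IRGs and other GBPs lie near -1, the first being the value of Gm12185, a gene at a few CPM. The IRGs with higher levels, Tgtp2, 9930111J21Rik2 and Irgq, lie between -0.43 and -0.23. The medians of the receptor, IRF, inhibitor, class I and type I lists lie between -0.11 and -0.04.

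The genes whose variation within genotypes was most like the mean of the 9 were ranked by Pearson r over the 8 libraries, each genotype centred, among 10381 genes. Gene models without a proper name, such as those with Gm or Rik symbols, were left out, among them the IRG 9930111J21Rik2. Parp9, which encodes an interferon-inducible ADP-ribosyltransferase family protein, led with an r of 0.98 (Spearman rho 0.90, and r 0.97 without WT2 and KO1, the pair farthest from the median). It was at 63.6 ± 17.7 CPM in WT and 49.0 ± 14.1 in KO (edgeR adjusted p = 0.610). Ptk2, Eif4g1, Xrcc1, Hoxa3, Ncald, Brcc3 and Man2a1 followed with r of 0.95 to 0.97. One of these 8 passed the test between genotypes. Ncald, a calcium sensor gene, was at 147, 189, 153 and 149 CPM in WT1 to WT4 and at 61.7, 50.02, 53.6 and 66.1 CPM in KO1 to KO4, and fell by 1.46 on the log2 scale (SE 0.18, edgeR adjusted p = 0.000228). All of these r describe the 8 libraries they were ranked on.

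Markers of other cells that a lung sort could hold were summed per library and compared between genotypes with an exact permutation test (two-sided, on means), in which 4 against 4 cannot go below p = 0.0286. Adjusted over 13 lists a single list cannot go below 0.371, so this design could not call 1 list alone and the values are given as ranges. The 10 T cell markers summed to 26.4 to 45.4 CPM in WT and 24.0 to 52.6 in KO, most of it Thy1, and Cd3g and Cd8a were at 0 in every library. The 8 markers of NK cells, a main source of interferon-gamma, summed to 0 to 3.89 CPM in WT and 0 to 1.41 in KO, and Klrb1c, Klrd1, Prf1 and Eomes were at 0 in every library. The 11 macrophage and monocyte markers summed to 465 to 2037 CPM in WT and 412 to 1503 in KO, nearly all of it Lyz2, which alveolar type 2 cells also express, while Chil3 and Fcgr1 were at 0 throughout and Csf1r did not exceed 11.7 CPM. The 7 dendritic cell markers summed to 71.5 to 105 CPM in WT and 40.9 to 83.1 in KO (exact p = 0.0857), nearly all of it Zbtb46, which endothelial cells also express, and Cd209a, Itgax and Ccr9 were at 0.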

How the data were processed

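RNA-seq of 8 libraries (4 WT, 4 KO) was deposited by the authors as raw read counts per gene, with genotype and replicate number given by the titles. The authors' tools were TopHat, HTSeq, edgeR and bcl2fastq on build mm10, per the submitters' processing notes, with versions, annotation and strand setting not given in the sources used here. Reads of overlapping genes on opposite strands can therefore not be told apart. All 8 value columns matched a label. Of 43430 Ensembl IDs, 42462 had a symbol in GENCODE M21 (GRCm38). Positions of genes are from GENCODE, and promoter windows from RefSeq (GRCm38.p6).

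TMM factors were applied after a filterByExpr filter (minimum count 10 and minimum total 15). The genotypes were tested with edgeR 4.0.16 (quasi-likelihood, robust, genotype only; R 4.3.3), adjusted by Benjamini-Hochberg at 0.05 over 12689 genes, and SE was derived from the F statistic. Log2 CPM used a prior count of 2. The code was tested on simulated data. The labels give no batch. Libraries of a group differed by more than counting error (chi-square of at least 34.4 per degree of freedom). Intervals and floors cover counting error only.

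The 9 genes and all lists were chosen with earlier results of these data known. Besides the 9, the genes named were every tested gene of the GTPase lists, up to 4 called genes with the smallest p of each other list or, where fewer than 2 were called, also the 2 with the highest mean CPM, Uqcrq, and the 8 genes most like the mean of the 9 among those with a mean of at least 5 CPM. One gene that this rule names is not reported here. Others are marked, except where a marker or a gene at 0 is named. Alternatives were RLE factors, library totals, no filter, at least 1 CPM in 4 libraries, DESeq2 1.42.0, limma 3.58.1 voom, a replicate block and leaving out each library.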

Additional observations from a re-analysis of the deposited data

Results flagged for a closer look

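In groups of 4 libraries, 9 of 106 gene and group combinations had 1 library far from the others by Dixon's test at 95%. Chance gives about 1 in 20, but 4 of these 9 flags fall on genes that were selected for varying like the 9 genes. The count can therefore not be read against that share. Irgm2 was at 71.1 CPM in KO1 against 20.2 to 21.1 in the other KO libraries. Gbp2 was at 44.5 CPM in KO4 against 33.4 to 34.4. WT2 stood above the other WT libraries for Irf1 (377 CPM against 143 to 171), for 9930111J21Rik2 (85.8 against 40.8 to 44.2) and for Bst2 (172 against 110 to 114). It also did so for Parp9 (89.9 against 51.5 to 57.9), Ncald (189 against 147 to 153), Brcc3 (44.9 against 22.9 to 26.4) and Man2a1 (181 against 126 to 132), 4 genes that were chosen because they varied like the 9.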

How the results depend on the processing

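The 9 genes kept a negative log2 fold change under all 15 alternatives, except Irgm1 at 0.0022 without WT2, and their median stayed between -0.997 and -0.69. Between 1 and 3 of them were called lower when single libraries were left out, 1 without WT2 or KO3. With DESeq2, 788 genes were called over the whole table, 371 of them lower. Leaving out single libraries gave 270 (without KO3) to 446 called genes, 97 (without KO3) to 187 lower and 173 (without KO3) to 259 higher, and without WT2 or KO2 111 and 105 were lower. Among the 139 related genes, those called lower numbered 4 with RLE factors, 5 with library totals, 5 without a filter and 8 with DESeq2, and 0 to 4 when single libraries were left out. Those called higher numbered 1 with RLE factors, with library totals and with the filter of at least 1 CPM in 4 libraries, 3 with DESeq2 and without a filter, and 1 to 2 when single libraries were left out. Same-numbered WT and KO libraries did not deviate together (r of -0.10, -0.10, -0.01 and 0.0044 for numbers 1 to 4). The labels do not say whether the numbers pair the samples, and so few libraries cannot settle it. With a replicate block 338 genes were called, of which 323 were also called without it, the related genes gave 0 lower and 1 higher, and the Gbp9 call was lost (edgeR adjusted p = 0.0629). The cause of these shifts was not tested. Of the single values of tested genes named, 623 stayed on the same side of the threshold, 10 passed it only under the alternative and 26 only without it. Most of the 623 belong to genes that were not called to begin with. All 26 lost calls fell on Gbp9, Bst2 and Map1lc3b, while Icam1 and Ncald kept their calls in all 15 alternatives. Depth limits genes under a few CPM, such as Gm5431, whose log2 fold change ran from -1.50 to 0.56.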

Other observations

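KO1 had the highest level of several interferon-stimulated genes and the lowest of other genes of the related lists, all named here after their values were seen. It was also the library with the lowest Uqcrq level (1.59 CPM) and the lowest sum of alveolar type 2 markers (3596 CPM). The part of either was not tested. H2-K1, a class I heavy chain, was at 1247 CPM in KO1, against 332 to 525 in the other KO libraries and 314 to 746 in WT. Usp18, an inhibitor that interferons induce, was at 57.8 CPM in KO1, at 13.5 to 26.4 in the other KO libraries and at 2.39 to 21.9 in WT. Tap1, the peptide transporter, was at 161 CPM in KO1 and at 70.8 to 123 in all other libraries. Psmb9 (15.0 CPM), Eif2ak2 (18.9) and Stat2 (13.0) had their lowest level of all 8 libraries in KO1. Low Stat2 was not particular to KO1: every KO library (13.0 to 36.3 CPM) was below every WT library (42.9 to 49.2). Such a separation held for 4.67% of all genes tested, and Stat2 did not pass the test (edgeR adjusted p = 0.224). Psmb9 was also below every WT library in KO2 (17.1 CPM) and KO3 (23.5). In KO1 Gbp2 (34.0 CPM), Iigp1 (18.7) and Ifi47 (30.5) stayed below every WT library, and Irf1 (101 CPM) was the lowest of all 8. Parp14, a partner of Parp9 and also named after its values were seen, was at 110 ± 38.9 CPM in WT and 57.1 ± 13.0 in KO (log2 fold change -0.95, SE 0.26, edgeR adjusted p = 0.0535), and DESeq2 called it lower.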
